A study of Mus musculus with 34 samples.

Results

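Chromatin accessibility around 10 genes of lipid sensing and cholesterol handling was followed across 34 ATAC-seq libraries prepared from hair follicle stem cells (HFSCs) of mice. The genes were the liver X receptors (LXRs) Nr1h3 (LXRα) and Nr1h2 (LXRβ), the peroxisome proliferator-activated receptors (PPARs) Ppara, Ppard and Pparg, and the LXR-responsive genes Abca1, Abcg1, Apoe, Mylip and Srebf1. A peak was assigned to a gene when its summit lay in the gene body, up to 50 kb upstream or up to 5 kb downstream in the mm39 annotation. Peaks that shared at least 1 bp between libraries were merged into sites. This gave 201 sites around the 10 genes, of 252803 sites in the whole series.

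The study asked how HFSCs sense and clear dying neighbours when the hair follicle regresses in catagen, and what this requires of RXRα, the retinoid X receptor encoded by Rxra. In vivo HFSCs were sorted from skin as late catagen wild type (CatVII wild type, n = 6) and full anagen wild type cells (AnaVI wild type, n = 2). Late catagen cells with a conditional knockout (CatVII Rxra cKO, n = 3) came from mice with Rxra fl/fl, the Cre Sox9-creER+ and the reporter R26-YFP fl/+, and were set against controls (CatVII Rxra WT, n = 4). The labels do not give the controls' alleles. The study's methods name more than one kind of control, with and without Cre and with differing Rxra alleles. For cells isolated for ATAC-seq, a supplementary legend of the study gives controls with Rxra+/+, Sox9-creER+ and R26-YFP fl/+. Whether this holds for each library is not certain here, because most control libraries are not stored under a WT name. The labels number the Rxra cKO libraries m1 to m3, but the stored peak names of replicates 2 and 3 both carry m2, so the 3 libraries may come from 2 animals. Tamoxifen induced the deletion at the end of anagen in cells that express the Sox9-driven Cre. Cultured HFSCs were Rxra cKO (Rxra fl/fl) or Rxra WT (Rxra+/+) lines from telogen skin, both with Sox9-creER+ and R26-YFP fl/fl, treated with 4-hydroxytamoxifen and grown on mouse fibroblast feeders. They received arachidonic acid, lysophosphatidylcholine and retinoic acids (AA, LPC and RA; 2 Rxra cKO and 2 Rxra WT libraries), apoptotic corpses kept in BEL, or bromoenol lactone, which blocks a calcium-independent phospholipase A2 (4 Rxra WT libraries), untreated apoptotic corpses (3 Rxra cKO and 4 Rxra WT libraries) or medium alone (2 Rxra cKO and 2 Rxra WT libraries). The corpses were HFSCs with an mTomato reporter that had been killed with cisplatin, and corpses without BEL had received vehicle. The labels give the hair cycle stage and no age.

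LXRs are nuclear receptors that sense oxysterols, the oxidised products of cholesterol, and PPARs sense fatty acids and their derivatives. Both bind DNA as heterodimers with a retinoid X receptor, LXRs preferably at direct repeats of the half-site AGGTCA spaced by 4 bases (DR4) and PPARs at repeats spaced by 1 base (DR1). In macrophages that digest dead cells, LXRs turn on the cholesterol exporters Abca1 and Abcg1, the lipoprotein component Apoe, the E3 ligase Mylip (IDOL), which degrades the LDL receptor, and Srebf1, which encodes the lipogenic factor SREBP-1. In skin, PPARγ is best known from sebocytes and adipocytes, and PPARδ from keratinocytes.

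Each library was represented by the peaks that the authors called in it, ranked here by their −log10 p, so that rank 1 is the most significant peak of a library. The files hold no read counts, so the depth is unknown and no counting interval can be given. Libraries held between 4144 and 129876 peaks, the 4 medium libraries at most 5740. Comparisons of groups therefore used lists of equal length, cut to the smallest library compared. A site was called when every library of one group ranked it better than every library of the other, an unlisted site being placed after the last rank. Beside this stands the difference in mean log10 rank with its exact permutation test, where a negative value means a better rank in the group named first. With these group sizes the exact test cannot go below 0.0357 for CatVII against AnaVI wild type, 0.0667 for corpses against medium, 0.1 for 3 against 3 libraries and 0.0286 elsewhere. After Benjamini-Hochberg adjustment over all sites of the genome, 0 sites passed 0.05 in any comparison, with 0 to 24792 sites per comparison at an unadjusted p under 0.05. Nothing in the labels says that replicates were separate animals or cultures, apart from an m number on the CatVII Rxra libraries, so the p-values measure the spread between these libraries.

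The label HFSC was checked against promoter peaks at 10 HFSC markers, of which the libraries outside the medium cultures held 1 to 10 (median 9) and the medium libraries 0 to 2. Immune markers had promoter peaks for at most 2 of 7 genes in any library. Of 7 fibroblast and feeder markers, 0 to 5 had a promoter peak per CatVII Rxra cKO library, 2 to 4 per CatVII Rxra WT library, 2 per corpse library of either genotype and 2 to 4 per BEL library, and Dpt had none in 34 libraries. Adipocyte and sebocyte markers reached 1 to 3 of 5 in CatVII Rxra WT, 2 to 3 in BEL and 1 to 2 in Rxra WT corpse libraries. The Rxra promoter had a peak in 29 of 34 libraries, all 6 Rxra cKO libraries from catagen skin and corpse cultures included, but the deleted part of Rxra is not given in the sources, so the peak checks nothing. In AA, LPC and RA Rxra WT replicate 3 only 12989 peaks were called, and medium libraries are described here but carry little weight. In these sorted or cultured pools, fewer cells of a type and less open chromatin per cell cannot be told apart.

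The sequences below are the 200 bases of the mm39 plus strand around the best-ranked summit of 6 sites on which the results turn. They show introns of Abcg1 (29.0 kb), Mylip (13.1 kb) and Ppard (37.2 kb) whose presence or rank separated in vivo from cultured cells. The site 31.6 kb upstream of Abca1 was called that way only in Rxra cKO, and was also called by genotype in CatVII HFSCs. The rest are 1 intronic Abcg1 site with a DR4 match that was listed in Rxra WT but not Rxra cKO corpse libraries, and 1 Apoe site, picked after its values were seen, that holds an overlapping DR1 and DR4 match. Capitals mark direct repeats of AGGTCA with a gap of 1, 2, 4 or 5 bases and at most 2 mismatches over the 12 half-site bases, searched on both strands.
Abcg1, 20.2 kb into the gene, intron, chr17:31296744-31296943, DR4 in capitals: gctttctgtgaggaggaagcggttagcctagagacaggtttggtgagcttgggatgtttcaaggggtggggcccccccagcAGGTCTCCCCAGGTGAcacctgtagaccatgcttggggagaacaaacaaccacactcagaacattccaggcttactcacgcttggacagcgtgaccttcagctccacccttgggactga
Abcg1, 29.0 kb into the gene, intron, chr17:31305520-31305719, no match: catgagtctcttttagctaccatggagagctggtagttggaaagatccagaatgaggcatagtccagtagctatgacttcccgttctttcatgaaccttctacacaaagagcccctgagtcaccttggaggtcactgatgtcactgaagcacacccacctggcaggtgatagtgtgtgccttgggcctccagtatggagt
Mylip, 13.1 kb into the gene, intron, chr13:45556215-45556414, DR2 in capitals: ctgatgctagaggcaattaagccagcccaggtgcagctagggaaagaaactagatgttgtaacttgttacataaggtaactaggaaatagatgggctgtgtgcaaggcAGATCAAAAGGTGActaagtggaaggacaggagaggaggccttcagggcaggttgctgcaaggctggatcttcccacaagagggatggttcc
Ppard, 37.2 kb into the gene, intron, chr17:28488784-28488983, no match: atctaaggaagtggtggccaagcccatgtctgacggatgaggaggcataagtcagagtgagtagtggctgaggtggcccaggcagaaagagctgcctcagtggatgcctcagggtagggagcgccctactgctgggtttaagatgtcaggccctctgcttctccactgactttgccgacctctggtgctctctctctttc
Abca1, 31.6 kb upstream, chr4:53191439-53191638, no match: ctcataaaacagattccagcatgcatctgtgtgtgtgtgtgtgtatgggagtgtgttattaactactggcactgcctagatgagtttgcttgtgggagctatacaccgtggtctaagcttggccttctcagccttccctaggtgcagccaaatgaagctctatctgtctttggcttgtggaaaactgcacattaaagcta
Apoe, 5.5 kb upstream, chr7:19439247-19439446, DR4 and DR1 in capitals: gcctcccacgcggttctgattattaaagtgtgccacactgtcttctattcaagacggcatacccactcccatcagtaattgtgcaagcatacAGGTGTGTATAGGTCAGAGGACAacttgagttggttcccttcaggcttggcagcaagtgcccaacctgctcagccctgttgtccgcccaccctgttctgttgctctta

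A DR4 match lay in 7 of the 201 sites (3.48%), against 2.49% of all sites in the series, and a DR1 match in 6 (2.99%, against 2.39%). DR2 matches lay in 4 sites (1.99%, against 2.34%) and a DR5 match in 1 (0.498%, against 2%), DR2 and DR5 being spacings used by retinoic acid receptors. In all, 17 sites held a match, none of them a promoter of the gene itself. The Apoe site 5.5 kb upstream was peaked in 4 of 34 libraries, at rank 37906 in 1 of 3 CatVII Rxra cKO libraries and at ranks 33476 to 45744 in 3 of 4 CatVII Rxra WT libraries. A match is a string of letters in the window and does not show that a receptor binds there.

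Of the 201 sites, 16 lay within 1 kb of a start of the gene itself, 11 at the promoter of another gene, 100 elsewhere upstream, 60 in introns, 6 in exons and 8 downstream. Most sites were seen in few libraries: 56 had a peak in 1 library, 71 in at least 8 and 32 in at least 17. Sites seen only in vivo numbered 75, and sites seen only in culture 57, with 15 in vivo and 19 cultured libraries. The same split over all sites of the series is not given here, and the number of peaks per library bears on it. It is therefore not read as a trait of these genes, which differed in it. Abca1 had 19 sites seen only in vivo and 6 only in culture of 30, Srebf1 15 and 3 of 23, and Apoe 11 and 1 of 19, whereas Ppard had 4 and 12 of 27 and Nr1h3 0 and 5 of 10. The share of a library's peaks that fell in the 10 windows was 0.106 ± 0.00405% in CatVII Rxra cKO and 0.115 ± 0.00775% in CatVII Rxra WT libraries, and 0.0743 ± 0.00458% in Rxra cKO and 0.0832 ± 0.00508% in Rxra WT corpse libraries (SD, n = 3, 4, 3 and 4).

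**Figure D1:**
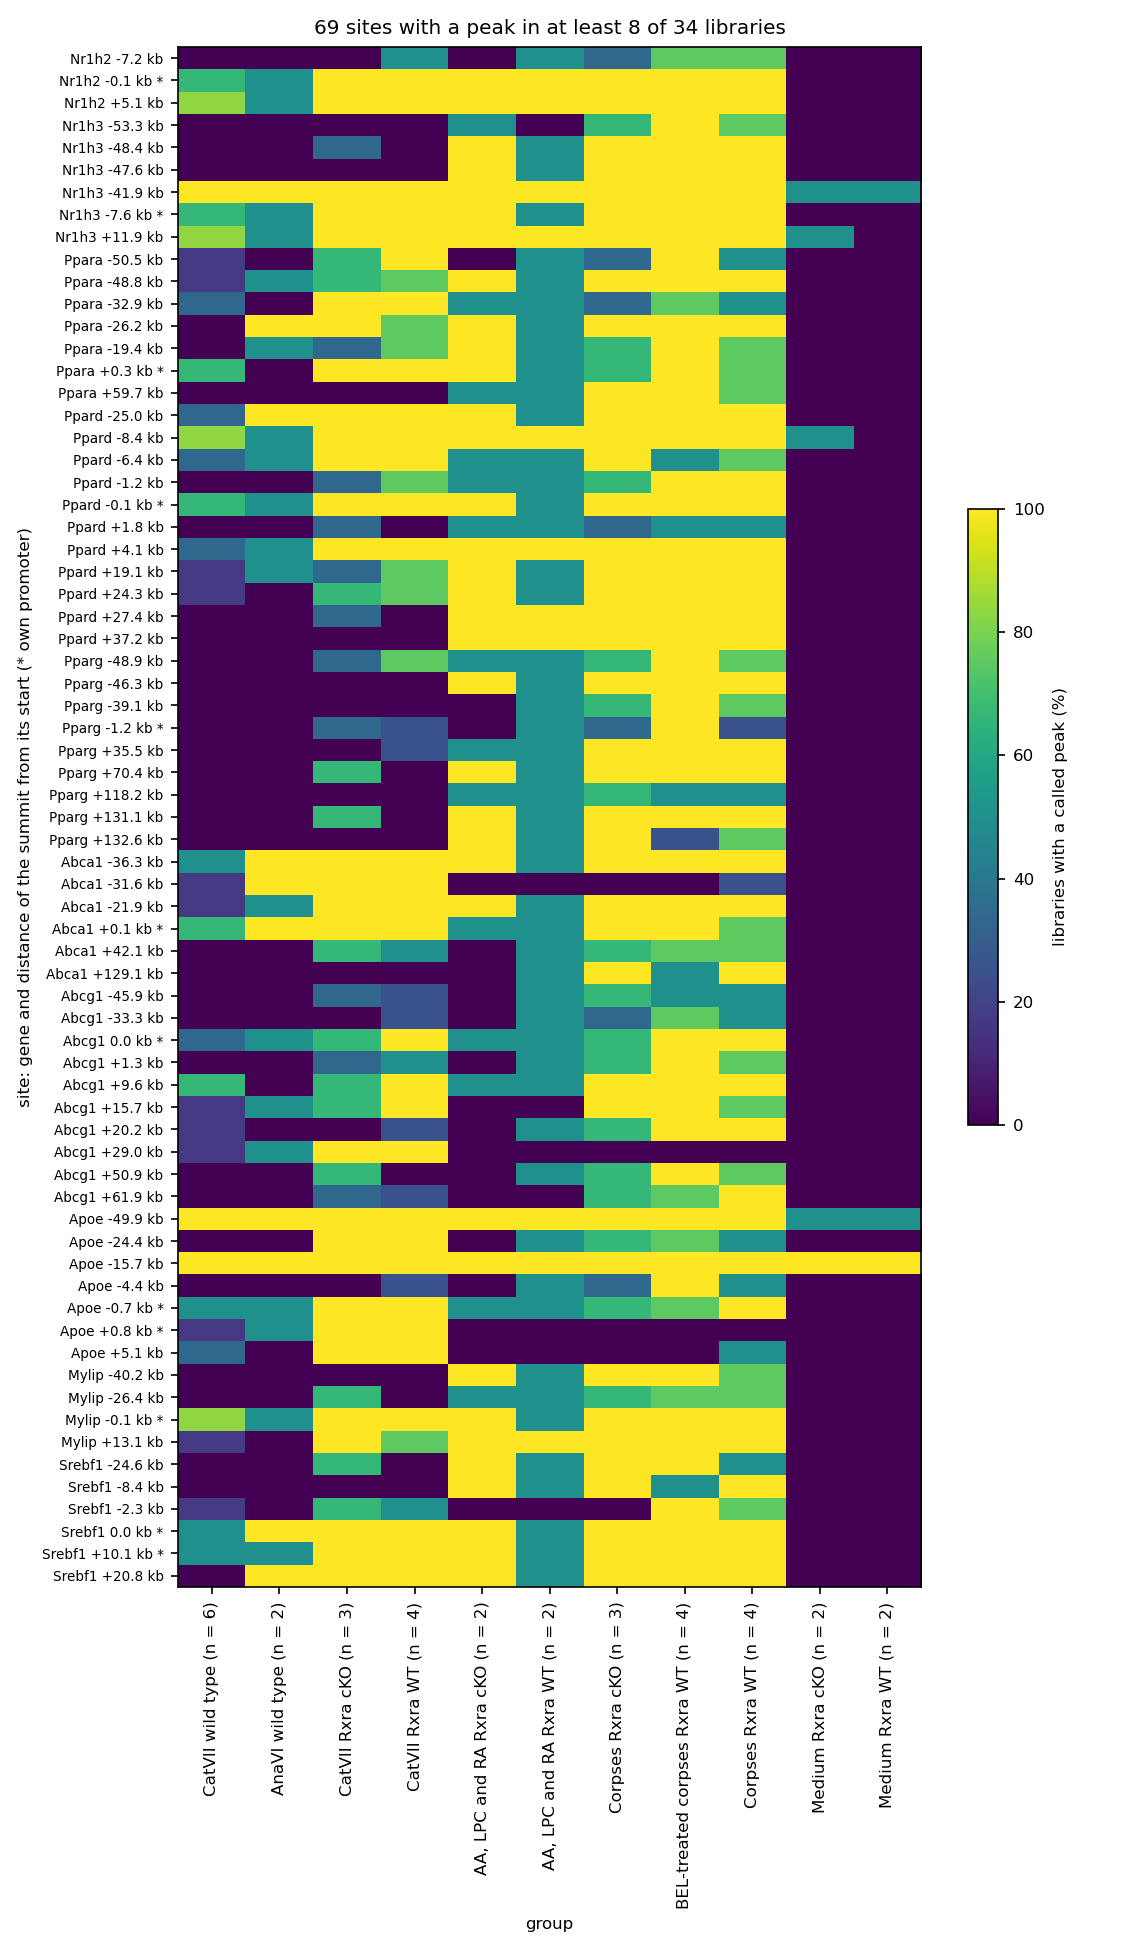
Share of the libraries of each group (columns, n in parentheses) with a called peak, in percent by colour, at 69 sites (rows) that had a peak in at least 8 of 34 libraries. The rows for the Ppard sites 27.4 and 37.2 kb into the gene are nearly empty in vivo and filled in the cultured groups other than medium, and the row for the Abcg1 site 29.0 kb into the gene is filled in the CatVII Rxra groups and empty in culture.

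The 2 LXR genes both had promoter peaks in most libraries, and neither peak separated the groups of any comparison. Nr1h2, the widely expressed LXRβ (chr7:44199036-44203406, minus strand), had a promoter site at chr7:44202560-44203856 in 27 libraries. Its ranks were 12179, 11206 and 8078 in CatVII Rxra cKO libraries, against 16239, 15169, 11788 and 5361 in CatVII Rxra WT libraries. With corpses they were 4755, 25326 and 3173 in Rxra cKO, against 8478, 12877, 6373 and 6690 in Rxra WT libraries. The groups overlapped in both settings. Nr1h3, the LXRα gene (chr2:91014394-91033417, minus strand), had its main promoter site 7.6 kb upstream of the canonical start at chr2:91032553-91033631, in 26 libraries. This site lies within 1 kb of a start of Acp2 as well, and the 2 promoters cannot be told apart. Its ranks were 21855, 35188 and 18539 in Rxra cKO corpse libraries, against 35177, 19089, 9927 and 14845 in Rxra WT corpse libraries. A second Nr1h3 promoter site, 0.5 kb into the gene, was peaked in 7 libraries, at best at rank 22805.

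**Figure D2:**
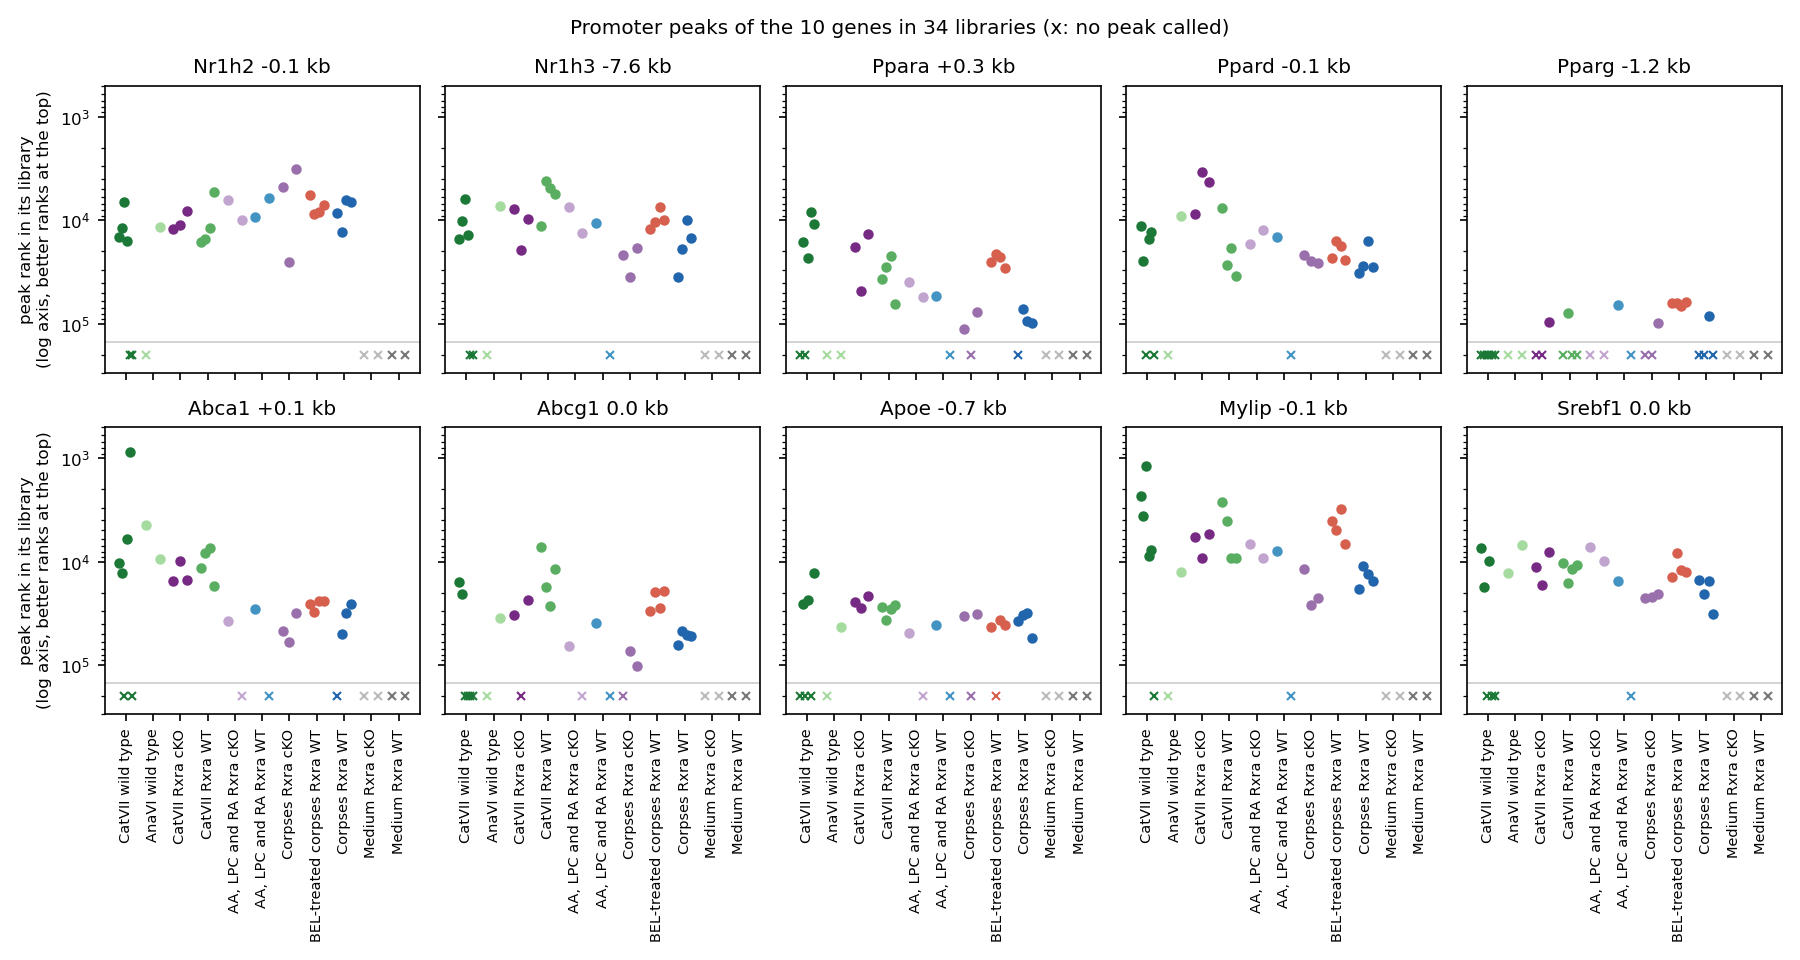
Rank of the promoter peak (log axis, better ranks at the top) of each of the 10 genes in the 34 libraries, grouped by condition along the horizontal axis, for the promoter site of each gene seen in the most libraries; a cross stands for no called peak. The Mylip, Nr1h2 and Srebf1 promoters have a peak in 26 or 27 libraries, the Pparg promoter in 9 libraries, and none of the 10 genes has one in the 4 medium libraries.

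The 3 PPAR genes ran from a promoter open in nearly all libraries outside medium to one that was barely called. Ppard, the PPAR of most epithelia (chr17:28451674-28520448, plus strand), had its promoter site at chr17:28451465-28452143 in 26 libraries, with ranks of 8628, 3415 and 4287 in CatVII Rxra cKO and 7671, 27215, 18390 and 34773 in CatVII Rxra WT libraries. Ppara, the receptor that drives fatty acid oxidation in liver (chr15:85618656-85687067, plus strand), had its promoter site at chr15:85618510-85620523 in 23 libraries. Its ranks were 17969, 48025 and 13703 in CatVII Rxra cKO libraries, against 36747, 28524, 22049 and 63901 in CatVII Rxra WT libraries. Pparg, the adipocyte and sebocyte receptor (chr6:115337675-115468268, plus strand), had a promoter site 1.2 kb from the canonical start at chr6:115337771-115338402 in 9 libraries, at best at rank 61882. Those 9 were all 4 BEL libraries (61882 to 67036) and 1 library each of CatVII Rxra cKO (96642), CatVII Rxra WT (78766), AA, LPC and RA Rxra WT (65816), Rxra cKO corpses (98308) and Rxra WT corpses (83591). The start of the 505-residue PPARγ isoform had no site within 1 kb, and the starts near this site code for a 475-residue isoform. Second promoters of Ppara (36.0 kb into the gene, 3 libraries, all CatVII Rxra WT) and Ppard (39.4 kb into the gene, 1 library) were rarely peaked.

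Mylip (chr13:45543215-45565501, plus strand) had a promoter site at chr13:45542570-45544612 in 27 libraries, with ranks of 5747, 9239 and 5370 in CatVII Rxra cKO and 2646, 4024, 9215 and 9288 in CatVII Rxra WT libraries. Abca1, which loads cholesterol onto lipid-poor apolipoproteins (chr4:53030787-53159900, minus strand), had a promoter site at chr4:53158677-53160337 in 25 libraries, and Abcg1, which exports cholesterol to lipoprotein particles (chr17:31276649-31336969, plus strand), one at chr17:31276384-31277330 in 21 libraries. Srebf1 (chr11:60089913-60113407, minus strand) was open at both of its promoters. The upstream one, at chr11:60110445-60111888, starts a protein of 1134 residues and was peaked in 26 libraries, and the one 10.1 kb into the gene, at chr11:60100970-60101783, starts one of 1022 residues and was peaked in 25. Apoe (chr7:19430034-19434947, minus strand) had promoter sites 0.7 kb upstream of the canonical start in 22 libraries and 0.8 kb and 1.7 kb into the gene in 9 and 2 libraries. The site 0.8 kb into Apoe, at chr7:19432716-19433555, had a peak in 9 of 15 in vivo libraries and 0 of 19 cultured libraries. When the 30 libraries outside medium were cut to a common length of 8223 peaks, the promoter of each of the 10 genes was listed in 0 to 14 libraries. No gene thus reached the 15 libraries set as the minimum for naming genes of like pattern.

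Away from promoters, the sites with the most peaks at Ppard and Abca1 were open in most libraries. The Ppard site 8.4 kb upstream (chr17:28442198-28444063) was peaked in 29 libraries, at ranks of 3427, 9276 and 2870 in CatVII Rxra cKO, against 5417, 10257, 6519 and 13515 in CatVII Rxra WT libraries, and in 1 medium library. The Abca1 site 36.3 kb upstream (chr4:53195942-53197230) was peaked in 26 libraries, with ranks of 13636, 29164 and 17114 in Rxra cKO corpse libraries, against 17678, 31848, 26504 and 21554 in Rxra WT corpse libraries. Neither separated the groups of any comparison. The Pparg site 131.1 kb from the start, downstream of the gene, was peaked in 16 libraries. The sites with the most peaks at Nr1h3, Ppara, Abcg1, Apoe, Mylip and Srebf1 are given with the comparisons.

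The starkest contrast at these genes was between HFSCs sorted from catagen skin and HFSCs cultured with corpses. This comparison was added after the data were seen, and cell source and library batch differ together, so their parts cannot be told apart. In Rxra WT libraries, 14 of 82 sites ranked better in CatVII HFSCs and 10 better with corpses, where 12.8% and 15.7% of 87258 sites did so genome-wide. In Rxra cKO libraries, 15 of 81 sites ranked better in CatVII HFSCs and 6 better with corpses, against 10.9% and 16.9% of 92114 sites. The shares of the sites were 17.1% and 12.2% in Rxra WT and 18.5% and 7.41% in Rxra cKO, above those backgrounds in vivo and below them with corpses. These backgrounds are not matched for the kind of site. In Rxra WT, 23% of all promoter sites and 10.7% of sites elsewhere ranked better in CatVII, and 4.4% and 17.9% with corpses. In Rxra cKO these shares were 24.3% and 8.36%, and 6.14% and 18.9%. The part of this in the shares of the sites was not tested. Without CatVII Rxra WT replicate 1, 41 sites in place of 24 were called in Rxra WT, and without CatVII Rxra cKO replicate 1 or 2, 47 or 33 in place of 21 in Rxra cKO. Here and below, counts with a library left out are given without the shares over all sites. A group with fewer libraries separates more easily, so a rise is not read as a result about these sites.

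The 10 sites that ranked better with corpses in Rxra WT were introns of Ppard, Mylip and Pparg, 2 sites upstream of Nr1h3, and 1 upstream site each of Pparg (46.3 kb, 0.26), Abca1 (21.9 kb, 0.18) and Srebf1 (8.4 kb, 0.20). The Ppard site 37.2 kb into the gene (chr17:28488407-28489507, sequence above) had no peak in any of the 15 in vivo libraries, and a peak in all 15 cultured libraries outside medium. With corpses its ranks were 6431, 5292 and 2773 in Rxra cKO and 4008, 2910, 5223 and 3925 in Rxra WT libraries, with fold enrichments at the summit of 14.9 ± 1.44 and 16.4 ± 2.07 (SD, n = 3 and 4). It ranked among the best 10137 peaks in each BEL library and the best 5352 in each AA, LPC and RA library. The difference in mean log10 rank, CatVII minus corpses, was 1.05 in Rxra WT (exact p = 0.0286, Benjamini-Hochberg adjusted p = 0.101) and 0.96 in Rxra cKO (exact p = 0.1, adjusted p = 0.361). A second Ppard intron, 27.4 kb into the gene (chr17:28478744-28479580), showed the same pattern. It was listed in none of the CatVII Rxra libraries, and its corpse ranks were 10583, 1805 and 2637 in Rxra cKO and 5954, 3887, 3687 and 3906 in Rxra WT libraries (differences of 1.05 and 1.01). Among all called peaks 1 in vivo library held it, CatVII Rxra cKO replicate 3 at rank 94427.

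The Mylip intron 13.1 kb into the gene (chr13:45555066-45556655), which holds the DR2 match printed above, was open in both settings but ranked far better in culture. Its ranks were 37933, 10595 and 38175 in CatVII Rxra cKO libraries, against 4470, 5415 and 3920 in Rxra cKO corpse libraries. In Rxra WT they were 19134, 26300 and 12099 in 3 CatVII libraries, with none in the first, against 4495, 4922, 1692 and 1447 with corpses. The fold enrichment was 7.52 ± 3.37 in CatVII Rxra cKO and 16.8 ± 2.6 in Rxra cKO corpse libraries (SD, n = 3 each). The Mylip promoter went the other way, with a difference of −0.42 in Rxra WT and −0.47 in Rxra cKO. Ranked by fold enrichment, the promoter and intron were no longer called in Rxra WT (−0.28 and 0.45) but were called in Rxra cKO (−0.42 and 0.47).

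The Pparg intron 70.4 kb into the gene (chr6:115409336-115410181) had no peak in any CatVII Rxra WT, CatVII wild type or AnaVI library, against ranks of 12423, 10192, 8793 and 10502 in Rxra WT corpse libraries (difference of 0.62, exact p = 0.0286, adjusted p = 0.101). In Rxra cKO the groups overlapped, with ranks of 12706 and 60652 in 2 of 3 CatVII libraries, against 9525, 12934 and 9330 with corpses. The Nr1h3 sites 47.6 and 48.4 kb upstream of the start (chr2:91072753-91073515 and chr2:91073737-91074122) were called in both genotypes. The first was peaked in 14 cultured libraries and no in vivo library, the second in 15 libraries of which 1 was in vivo. At the common list length of 41317, all 6 sites called as better with corpses in Rxra cKO (100%) were also called in Rxra WT, where they made up 60% of 10; over all sites these shares were 58.9% and 70%. The sixth was a Ppard intron 24.3 kb into the gene.

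**Figure D3:**
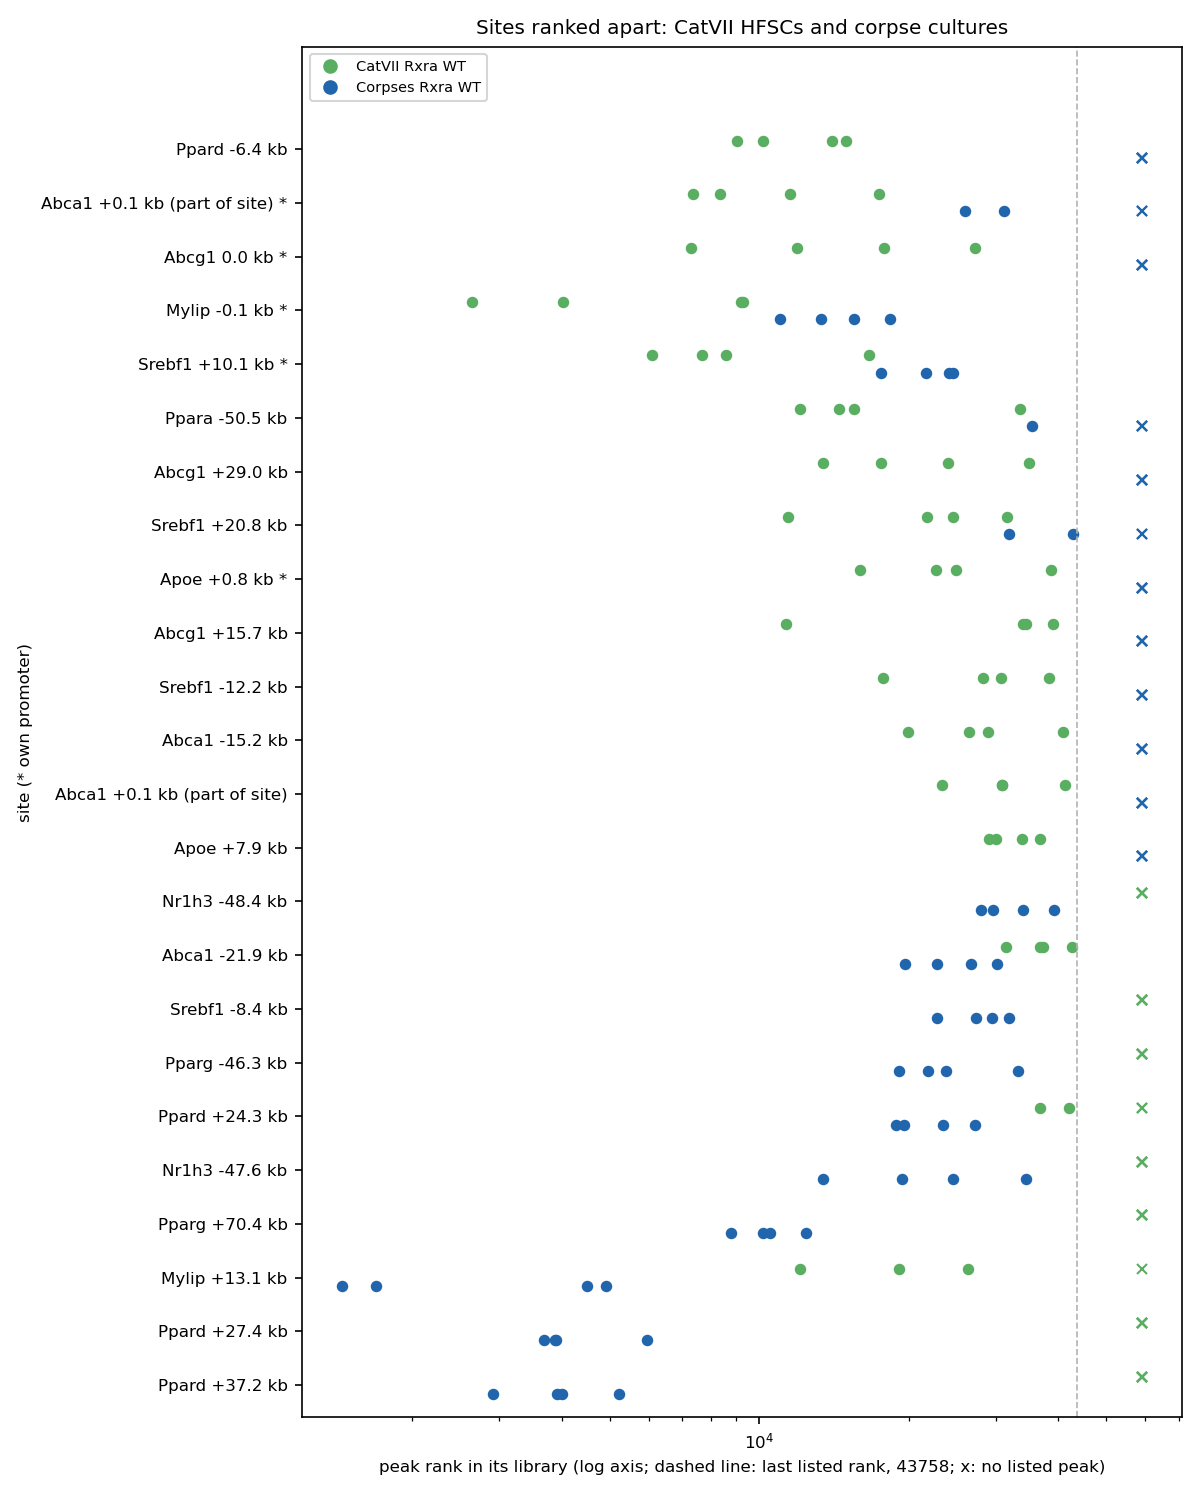
Peak rank (log axis) at the 24 sites whose libraries did not overlap between CatVII Rxra WT HFSCs and Rxra WT corpse cultures; a point is a library, a cross is no listed peak, the dashed line is the last listed rank (43758) and an asterisk marks a promoter of the gene itself. The Ppard introns 27.4 and 37.2 kb into the gene have crosses for all 4 CatVII Rxra WT libraries and points between 2910 and 5954 for the 4 corpse libraries.

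The cholesterol exporters had calls on the in vivo side, and Abca1 also 1 on the other: its site 21.9 kb upstream ranked 36731, 37246, 42658 and 31458 in CatVII Rxra WT libraries, against 19672, 30173, 22814 and 26683 with corpses. The Abca1 promoter had ranks of 11544, 8324, 7362 and 17417 in CatVII Rxra WT libraries, against 31201 and 25942 in 2 of 4 Rxra WT corpse libraries at this list length (difference of −0.52). In Rxra cKO it ranked 15310, 9860 and 15372 in CatVII libraries and 31248 in 1 of 3 corpse libraries (−0.45). An adjoining part of the same site, at chr4:53158677-53159106, was counted as an intron site of its own in Rxra WT (−0.15). The Abcg1 promoter ranked 7287, 17844, 27196 and 11926 in CatVII Rxra WT libraries and was listed in none of the 4 Rxra WT corpse libraries at this length, although each had a peak among all called peaks, at 47541 to 63828 (−0.48). The Abcg1 intron 29.0 kb into the gene (chr17:31305131-31305864) was peaked in 9 in vivo libraries, among them all 3 CatVII Rxra cKO (14726 to 41423) and all 4 CatVII Rxra WT libraries (13430 to 34963), and in 0 of 19 cultured libraries. The Srebf1 promoter 10.1 kb into the gene ranked 6086, 8575, 16615 and 7666 in CatVII Rxra WT libraries, against 24539, 24175, 17592 and 21713 with corpses (−0.38), and 6823, 3433 and 3234 in CatVII Rxra cKO libraries, against 26889, 45066 and 14799 among all called peaks with corpses (−0.78). Ranked by fold enrichment, the Abca1 and Srebf1 promoters were no longer called in Rxra WT (−0.29 and −0.28) but were in Rxra cKO (−0.41 and −0.81).

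At Ppard, the direction depended on the site. A site 6.4 kb upstream of Ppard ranked 14028, 10163, 9041 and 14959 in CatVII Rxra WT libraries and was not listed with corpses (−0.57), and 12110, 16618 and 17298 in CatVII Rxra cKO libraries, against 27583 in 1 of 3 corpse libraries (−0.38). The promoter of Ppard ranked 8628, 3415 and 4287 in CatVII Rxra cKO libraries, against 21481, 24558 and 25639 with corpses (−0.68), but its Rxra WT groups overlapped. The Ppard intron 4.1 kb into the gene also ranked better in CatVII in Rxra cKO (−0.51), and the site 8.4 kb upstream was called in neither genotype (0.04 in Rxra WT and −0.04 in Rxra cKO). The introns 24.3, 27.4 and 37.2 kb into Ppard ranked better in culture in both genotypes. Of the promoter sites of the genes themselves, 5 of 13 ranked better in CatVII than corpse libraries in Rxra WT and 7 of 14 in Rxra cKO, where 23% and 24.3% of all promoter sites did, and 0 ranked better with corpses in either genotype. At 41317 peaks 5 sites were called as better in vivo in both genotypes, which is 35.7% of 14 in Rxra WT and 31.2% of 16 in Rxra cKO, against 47.7% and 51% over all sites. They were the promoters of Abca1, Mylip, Srebf1 (10.1 kb into the gene) and Apoe (0.8 kb into the gene) and the site 6.4 kb upstream of Ppard. No site was called in opposite directions.

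The comparison of Rxra cKO with Rxra WT corpse cultures asks what RXRα, a receptor partner of LXR and PPAR, contributes when HFSCs meet corpses. The promoter of another retinoid X receptor gene, Rxrb, had a peak in each Rxra cKO corpse library (17468, 45005 and 16335). Here 2 of 81 sites ranked better in Rxra cKO and 10 better in Rxra WT libraries, where 7.75% and 6.4% of 110174 sites did so, and the median difference was 0.03 over the sites, against 0.00 over all. Of these calls, 4 lay at Abcg1, each ranked better in Rxra WT, and others lay at Nr1h3, Ppara, Ppard, Pparg and Srebf1. Without Rxra cKO corpse replicate 2, 20 sites were called in place of 12.

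At Abcg1, 4 of the 10 sites that ranked better in Rxra WT corpse libraries lay in 1 gene. The intron 9.6 kb into the gene (chr17:31285780-31286534) ranked 44921, 20338 and 24655 in Rxra cKO, against 7477, 15449, 6828 and 5029 in Rxra WT corpse libraries, a difference of 0.55 (exact p = 0.0571, adjusted p = 0.405). Its fold enrichment was 12.1 ± 2.29 in Rxra cKO and 19.2 ± 7.92 in Rxra WT (SD, n = 3 and 4). The promoter and the intron 20.2 kb into the gene with the DR4 match were listed in 0 of 3 Rxra cKO libraries, against 4 of 4 Rxra WT libraries. Among all called peaks, the DR4 intron ranked 96188 and 72171 in 2 of 3 Rxra cKO libraries, against 57297, 44285, 41117 and 33983 in Rxra WT libraries, and the promoter 73095 and 103060 in 2 of 3 Rxra cKO libraries, against 63828, 47541, 51336 and 52751 in Rxra WT libraries. These listed differences were 0.22 and 0.13, near the end of the list. The fourth was a site 61.9 kb from the start, downstream of the gene (0.14). In CatVII HFSCs the intron 9.6 kb into the gene also differed by 0.55 but was not called (exact p = 0.0857, adjusted p = 0.693). It ranked 11977 in 1 of 3 Rxra cKO libraries there, against 17749, 5375, 6058 and 6318 in Rxra WT libraries. The promoter leaned the same way in CatVII HFSCs (0.35) and was not called, and the other sites of the 4 had no listed peak there.

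Ppard had its intron 4.1 kb into the gene at ranks of 37657, 26445 and 39978 in Rxra cKO, against 19350, 9172, 11961 and 13728 in Rxra WT corpse libraries (0.42, exact p = 0.0286, adjusted p = 0.299). Upstream of Ppara, a part of the site 26.2 kb from the start (chr15:85593136-85593941) ranked 57256, 69517 and 52718 in Rxra cKO, against 26378, 27538, 29383 and 46427 in Rxra WT libraries (0.27), while the other part of that site overlapped between genotypes. The same held at Srebf1. A small part of its upstream promoter site, chr11:60110573-60110742, ranked 45779, 45188 and 36671 in Rxra cKO, against 15029, 20826, 29629 and 32255 in Rxra WT libraries (0.26), but the main part of the site, at chr11:60111164-60111708, ranked 22396, 22037 and 20409 in Rxra cKO and 20757, 33354, 15504 and 33787 in Rxra WT libraries. The other 2 calls with better ranks in Rxra WT lay upstream of Pparg and Ppard (0.26 and 0.18).

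The 2 sites that ranked better in Rxra cKO corpse libraries were the one 48.4 kb upstream of Nr1h3 and an intron of Pparg. The Nr1h3 site ranked 25099, 19857 and 8370 in Rxra cKO, against 29595, 39354, 28057 and 33976 in Rxra WT corpse libraries (−0.30, exact p = 0.0286, adjusted p = 0.299). With AA, LPC and RA it ranked 19761 and 19730 in Rxra cKO, against 47861 in 1 of 2 Rxra WT libraries. The Pparg intron 91.5 kb into the gene ranked 41037, 41969 and 43453 in Rxra cKO corpse libraries and had no listed peak in Rxra WT (−0.23). Endothelial markers moved with this comparison: 2 of 3 promoters (of Pecam1, Cdh5 and Kdr) had a peak in each Rxra cKO corpse library and 1 of 3 in each Rxra WT corpse library, with Cdh5 peaked in 3 of 3 Rxra cKO corpse libraries, against 0 of 4 Rxra WT corpse libraries. Of 9 listed HFSC markers, only the Krt5 promoter was called, ranking better in Rxra WT (0.34). Their part in the calls was not tested.

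**Figure D4:**
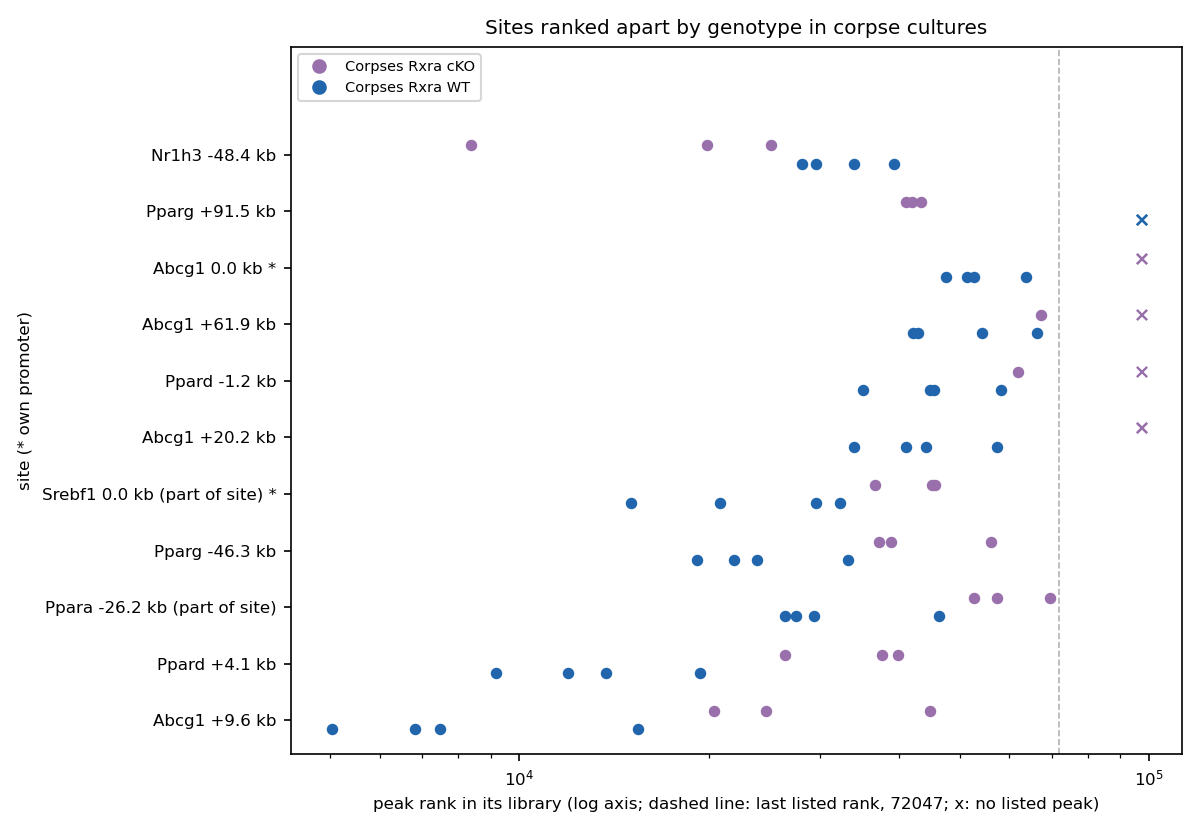
Peak rank (log axis) at 11 sites whose libraries did not overlap between Rxra cKO and Rxra WT corpse cultures; a point is a library, a cross is no listed peak and the dashed line is the last listed rank (72047). At the Abcg1 intron 9.6 kb into the gene the 3 Rxra cKO libraries sit between 20338 and 44921 and the 4 Rxra WT libraries between 5029 and 15449.

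In vivo, few sites were called by genotype, and genotype ran nearly with the tag of the stored peak names: all 3 CatVII Rxra cKO libraries and 1 CatVII Rxra WT library carry P42, and the other 3 CatVII Rxra WT libraries carry P37. The stored names of those 3 are numbered NonPhago 4 to 6, following NonPhago 1 to 3 of the CatVII wild type group. Only CatVII Rxra WT replicate 1 is stored under a WT name, so the mice behind the others are not certain here. Of the libraries compared, Rxra cKO replicate 3 alone carries a Phago tag, and the part of these tags in the calls was not tested. In CatVII HFSCs 4 of 82 sites ranked better in Rxra cKO and 3 better in Rxra WT libraries, where 1.91% and 3.48% of 81261 sites did so, and no promoter of the 10 genes was among them. The site 31.6 kb upstream of Abca1 (sequence above) ranked 27270, 9736 and 21831 in Rxra cKO, against 30454 and 41311 in 2 of 4 Rxra WT libraries (−0.33). A second site 21.9 kb upstream of Abca1 ranked 27369, 16893 and 14015 in Rxra cKO, against 36731, 37246 and 31458 in 3 of 4 Rxra WT libraries (−0.29). The other 2 calls in this direction were a site downstream of Apoe, 5.1 kb from its start (−0.22), and one 32.9 kb upstream of Ppara (−0.16). Better in Rxra WT were a site 15.2 kb upstream of Abca1 (0.17), one 24.4 kb upstream of Apoe (0.14) and the Apoc1 promoter 7.9 kb from the Apoe start (0.11), listed in 0 of 3 Rxra cKO libraries, against 4 of 4 Rxra WT libraries. So the upstream region of Abca1 held calls in both directions. All 7 had an exact p of 0.0286 or 0.0571 and an adjusted p of 0.693. Without Rxra cKO replicate 1, Rxra cKO replicate 2 or Rxra WT replicate 1, 19, 13 or 17 sites were called in place of 7. Among the P42 libraries alone, 3 against 1, 7 of 76 sites ranked better in Rxra cKO and 17 better in Rxra WT, as did 8.02% and 21.9% of all sites. Of 10 listed HFSC markers, only the promoter of Tcf7l1 was called, ranking better in Rxra cKO (−0.37). Of 2 listed fibroblast markers, that of Pdgfra was called, ranking better in Rxra WT (0.16). The part of these markers in the site calls was not tested.

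A direct test set the genotype effect in CatVII HFSCs against that in corpse cultures, by permuting genotypes within each setting (1225 exact permutations, lists of 41317 peaks). An unadjusted exact p under 0.05 was reached at 5 of 95 sites (5.26%), against 6.51% of 109251 sites, and the smallest adjusted p was 0.513. Of these, 4 lay near Nr1h3, Ppara, Abca1 and Apoe, each at an exact p of 0.0286. At each of these 4, the libraries of either CatVII or the corpse cultures held no listed peak, giving an effect of 0.00. The test there only repeats the genotype test of the other setting and cannot show that the effects differ between settings.

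BEL blocks the release of lysophosphatidylcholine and fatty acids from corpses, and this comparison asks what HFSCs show when those lipids are withheld. With BEL-treated corpses 14 of 77 sites ranked better and 3 ranked worse than with untreated corpses, where 11.9% and 6.42% of 89755 sites did so. Ranks moved strongly with the kind of site in the whole genome: 40.5% of all promoter sites ranked better with BEL, against 6.45% of the sites elsewhere. Of the promoter sites of the 10 genes, 5 of 11 ranked better, near that background. The shortest called peak was 144 or 145 bp in each BEL library and 60 to 104 bp in the corpse libraries, and the part of this difference in the calls was not tested. Of 9 listed HFSC markers, the promoters of 4 ranked better with BEL: Itga6 (−0.58), Tcf7l1 (−0.54), Nfatc1 (−0.27) and Lhx2 (−0.14). This is near the 43.3% of all genes with a listed promoter peak, and the median difference was −0.15, against −0.21 over all genes. All calls in this comparison had an exact p of 0.0286 and an adjusted p of 0.156.

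The Mylip promoter ranked 4030, 4963, 3122 and 6755 with BEL-treated corpses, against 18367, 10995, 13303 and 15508 with untreated corpses. This is a difference of −0.50, with means of 3.66 ± 0.14 and 4.15 ± 0.09 (SD of log10 rank, n = 4 each). The Ppara promoter ranked 25552, 21284, 22894 and 29103 with BEL and was listed in no untreated corpse library (−0.41). Among all called peaks it was found in 3 of those 4, at ranks of 71626, 93326 and 98952, and its fold enrichment was 12 ± 1.2 with BEL (SD, n = 4) and 4.55 ± 0.611 in these 3 libraries (SD, n = 3). So the Ppara promoter was called in every BEL library and was weak or uncalled with untreated corpses. The Abcg1 promoter ranked 30447, 19795, 27908 and 19294 with BEL, against 47541, 51336 and 52751 in 3 of 4 untreated corpse libraries (−0.35). Both Srebf1 promoters also ranked better (−0.23 for the upstream one and −0.21 for the one 10.1 kb into the gene). Ranked by fold enrichment, the Mylip promoter (−0.34) and both Srebf1 promoters (−0.01 and −0.14) were no longer called. The promoters of Nr1h2, Nr1h3, Ppard, Pparg, Abca1 and Apoe were not called.

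Away from these promoters, the strongest calls with better ranks under BEL were promoters of neighbouring genes. The Tomm40 promoter, 15.7 kb upstream of Apoe and peaked in all 34 libraries, ranked 194, 153, 220 and 164 with BEL, against 1434, 1352, 327 and 2133 with untreated corpses (−0.78). The Ddb2 promoter 41.9 kb upstream of Nr1h3 and the Def6 promoter 25.0 kb upstream of Ppard followed (−0.50 and −0.38). An intron of Abcg1, 50.9 kb into the gene, ranked 30900, 29432, 30071 and 22037 with BEL, against 48359 and 42060 in 2 of 4 untreated corpse libraries (−0.28). The remaining 5 differences in this direction ran from −0.25 to −0.05.

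The 3 sites that ranked better with untreated corpses all lay away from promoters. They were the site 8.4 kb upstream of Srebf1 (0.34), the Pparg intron 70.4 kb into the gene (0.18) and the site 48.4 kb upstream of Nr1h3 (0.16). The Pparg intron ranked 14833, 14443, 15102 and 19464 with BEL, against 12423, 10192, 8793 and 10502 with untreated corpses. The Srebf1 site ranked 53952 and 59238 in 2 of 4 BEL libraries, against 27406, 22810, 31821 and 29394 with untreated corpses. All 3 were among the sites seen mainly in culture. When peaks were ranked by fold enrichment in place of −log10 p, the Tomm40 promoter, the Ppard intron 4.1 kb into the gene and the Pparg intron changed direction (0.13, 0.11 and −0.08).

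**Figure D5:**
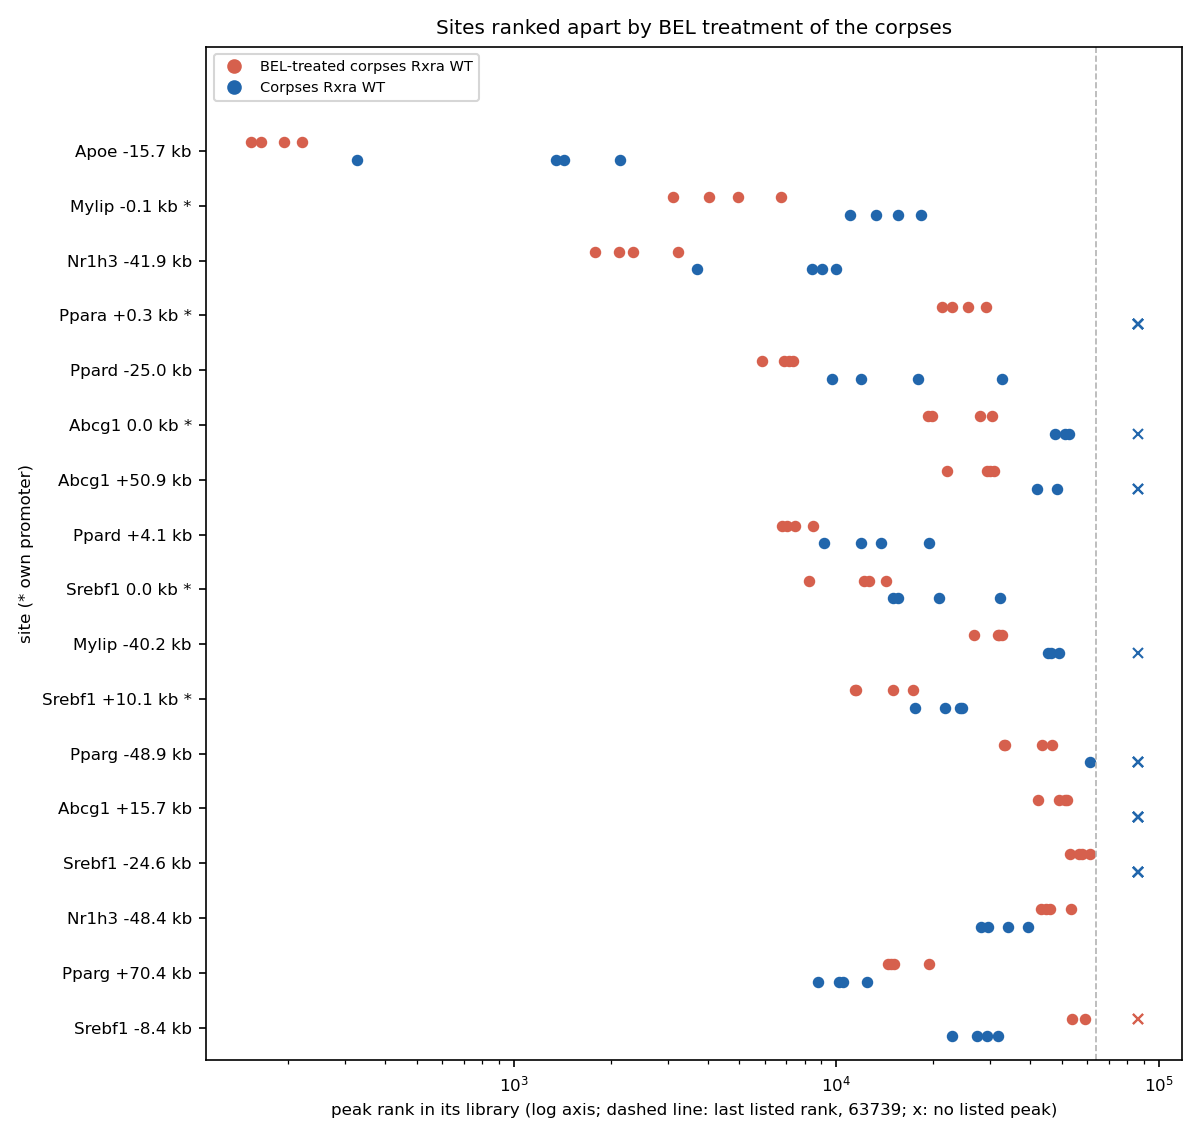
Peak rank (log axis) at the 17 sites whose libraries did not overlap between cultures with BEL-treated and untreated corpses, all Rxra WT; a point is a library, a cross is no listed peak, the dashed line is the last listed rank (63739) and an asterisk marks a promoter of the gene itself. The Ppara promoter has 4 points between 21284 and 29103 for BEL and 4 crosses for untreated corpses.

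Between late catagen and anagen wild-type HFSCs, little could be compared, because the smallest library limits the lists to 8223 peaks. Of 17 sites, 0 ranked better in CatVII and 2 better in AnaVI HFSCs, where 4.92% and 8.43% of 22966 sites did so. The Def6 promoter 25.0 kb upstream of Ppard was listed in 0 of 6 CatVII libraries and at ranks of 1792 and 6822 in AnaVI libraries (0.37, exact p = 0.0357, Benjamini-Hochberg adjusted p = 0.33). The Tomm40 promoter ranked 378 to 1563 over these libraries, with 436 as the best CatVII rank and 425 as the worse AnaVI rank (0.27, exact p = 0.107, adjusted p = 0.584). Neither site is a promoter of a lipid gene. Of 3 listed melanocyte markers, the promoter of Mitf was called, ranking better in AnaVI (0.53). Those of Pmel (−0.11) and Dct (−0.08) leaned to CatVII and were not called. The part of these markers in the calls was not tested. Without AnaVI replicate 1 or 2, 5 or 4 sites were called in place of 2. Among all called peaks, the site 26.2 kb upstream of Ppara had no peak in the 6 CatVII wild type libraries and ranked 10109 and 10339 in the AnaVI libraries. A Srebf1 exon outside the coding sequence, 20.8 kb into the gene, likewise had no peak in those 6 and ranked 8560 and 16465 in the AnaVI libraries. These lists were of unequal length, with 8311 to 52110 peaks per CatVII wild type and 14307 to 52455 per AnaVI library. The CatVII Rxra WT libraries, also from late catagen, held peaks at both sites in lists of 41317 peaks. There a part of the Ppara site ranked 30679, 11784 and 21426 in 3 of 4 libraries, and the Srebf1 exon 21828, 31519, 24535 and 11444.

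Corpses against medium in Rxra WT cultures could hardly be compared at these genes. At 4812 peaks, 14 sites were listed and 0 were called in either direction, where 10.4% and 5.81% of 14759 sites ranked better with corpses and in medium. Mylip was among those listed, its intron 13.1 kb into the gene in 3 of 4 corpse libraries (4495, 1692 and 1447) and 0 of 2 medium libraries. The Ppard intron 37.2 kb into the gene was listed at 4008, 2910 and 3925 in 3 of 4 corpse libraries and in 0 of 2 medium libraries. Leaving out medium replicate 3 or 4 gave 5 or 3 calls, leaving out corpse replicate 1 or 2 gave 2 each, and leaving out corpse replicate 3 gave 1. With all called peaks 39 sites ranked better with corpses, as did 36.7% of all sites, from medium libraries that held 4841 and 5740 peaks.

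With AA, LPC and RA there were 2 libraries per genotype, so values stand side by side without a test. The stored peak names carry a NonPhago tag in both Rxra cKO libraries and a Phago tag in both Rxra WT libraries, so what this tag stands for and genotype cannot be told apart here. The Ppard introns 27.4 and 37.2 kb into the gene ranked 8833 and 5020, and 5352 and 3126, in Rxra cKO libraries, against 3113 and 3353, and 4568 and 969, in Rxra WT libraries. The Mylip intron ranked 2004 and 3493 in Rxra cKO, against 3576 and 4731 in Rxra WT. These 3 sites were thus open whether cultures had received corpses or the lipids. The Abcg1 promoter ranked 65818 in 1 of 2 Rxra cKO libraries and 39438 in 1 of 2 Rxra WT libraries, and the Abca1 promoter 37576 and 28542 in 1 library each.

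Related genes were described by the best peak within 1 kb of any of their starts. Of all genes with such a peak, 11.1% ranked better in CatVII and 5.86% in AnaVI wild-type HFSCs, 2.71% in CatVII Rxra cKO and 4.46% in CatVII Rxra WT, 13.7% with corpses and 4.08% in medium, 4.78% in Rxra cKO and 6.3% in Rxra WT corpse cultures, and 43.3% with BEL-treated and 2.19% with untreated corpses. Under BEL, 4 of the 10 genes (Ppara, Abcg1, Mylip and Srebf1) ranked better and 0 worse, with a median difference of −0.20, against −0.21 over all genes. Of 12 retinoid X receptor and cofactor genes, 4 of 11 listed ranked better with BEL (Rxrb −0.50, Nrip1 −0.47, Ncoa1 −0.43 and Med1 −0.17). Of 16 further LXR targets, 4 of 10 listed did so, among them the fatty acid synthase Fasn (−0.75) and the phospholipid-remodelling enzyme Lpcat3 (−0.56). Of 21 PPAR targets, 6 of 15 listed did so, among them the fatty acid oxidation genes Acadl (−0.58) and Hadha (−0.54). No gene of the 3 lists ranked worse, and these shares lie near the 43.3% of all genes.

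By genotype, few of the related genes were called. With corpses, the coactivator Ncoa3 (0.78) and Ppargc1b (0.20) of 12 listed cofactor genes and the desaturase Scd2 (0.39) of 8 listed LXR targets ranked better in Rxra WT, 0 of 14 listed PPAR targets were called, and of the 10 genes only Abcg1 was (0.13). In CatVII HFSCs, Scd1 (0.50), Mlxipl (0.41) and Apoc1 (0.11) of 10 listed LXR targets, the coactivator Ppargc1a (0.15) of 11 listed cofactor genes and 1 of 18 listed PPAR targets ranked better in Rxra WT, and 0 in Rxra cKO. None of the 10 genes was called by its promoter there. Between CatVII and AnaVI wild-type HFSCs, the fatty acid oxidation genes Acadm (−0.70) and Acsl1 (−0.69) of 11 listed PPAR targets ranked better in CatVII, and Rxra (0.32) of 5 listed cofactor genes and Mlxipl (0.20) of 7 listed LXR targets in AnaVI. With corpses against medium, Ncoa3 (−0.57) of 4 listed cofactor genes and Cpt1a (−0.39) of 3 listed PPAR targets ranked better with corpses, Slc27a1 (0.47) of those 3 better in medium, and the 1 listed LXR target was not called. None of the 10 genes had a listed promoter peak in that comparison.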

How the data were processed

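ATAC-seq libraries of sorted or cultured mouse HFSCs were analysed as peak lists, 1 per library. Per the labels and the study's methods, the authors mapped to mm39 with BWA-MEM (BWA 0.7.18), removed duplicates with SAMtools (1.17; the processing notes also name 1.9) and called peaks per library, not on pooled libraries, with MACS3 3.0.0 in paired-end mode. The deposited values used are each peak's −log10 p and −log10 q and its fold enrichment at the summit, a ratio of signal to local background. The lists hold no counts, so the count model the study's methods describe could not be fitted; other columns of the lists were not used. Calling of peaks depends on depth and fragment length, so lists were cut to equal length before groups were compared.

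Peaks on the 19 autosomes and the sex chromosomes were ranked by −log10 p and merged where they shared at least 1 bp. Starts, exons and gene coordinates came from GENCODE M39, and a promoter is the region within 1 kb of a start. A call needs every library of one group to rank better than every library of the other; the two-sided exact permutation test on mean log10 rank was adjusted over all sites. Separation calls and permutation tests were tested on simulated data. Analyses ran in python 3.11.15 with numpy 2.4.6, pandas 2.3.3, scipy 1.17.1 and matplotlib 3.10.9.

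Groups follow the labels. Of the sites, the text names each gene's promoters, up to 4 further called sites per comparison and direction by size of difference, and the site outside promoters with peaks in the most libraries; other sites named, and all sites of the 2 comparisons of catagen with corpse cultures, were chosen after their values were seen. The genes and the lists of related genes and markers were chosen with earlier results of these data known. Alternatives were all called peaks, lists cut to a smaller length, a −log10 q of at least 5, peaks trimmed around their summits, a window of 10 kb upstream, ranking by fold enrichment, leaving out each library and pairing libraries by replicate number. The AA, LPC and RA groups and the medium Rxra cKO group, each with 2 libraries, entered no test. Sites at 1 neighbouring gene and a few related genes are counted but not reported here.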

Additional observations from a re-analysis of the deposited data

Results flagged for a closer look

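Groups of at least 4 libraries were tested where each library held a peak. The sites were the promoters of the genes themselves and the reported sites called in a comparison other than CatVII against corpses. Of 75 such sets, 5 held a library that stood apart from the others of its group, and chance alone gives about 1 in 20. In BEL cultures, replicate 1 had the site 40.2 kb upstream of Mylip at rank 26826, against 31772 to 32763 in the other 3. BEL replicate 4 had the Pparg intron 70.4 kb into the gene at rank 19464, against 14443 to 15102, and the Abcg1 intron 50.9 kb into the gene at rank 22037, against 29432 to 30900. Among CatVII Rxra WT libraries, replicate 1 had the Abcg1 intron 9.6 kb into the gene at rank 17749, against 5375 to 6318, and the Abcg1 intron 15.7 kb into the gene at rank 11315, against 34014 to 39148. The stored peak names of CatVII Rxra WT replicate 1 carry another P tag than those of replicates 2 to 4, and the part of this in the 2 Abcg1 ranks was not tested.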

How the results depend on the processing

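The number of called sites depended on the list length and on single libraries, and the lists limit what can be seen at weak sites: a gene's peak below the last listed rank counts as unlisted. For catagen against anagen wild type, 2 calls became 4 with all called peaks, 1 with lists cut to a smaller length, at a −log10 q of at least 5 or by fold enrichment, and 0 in the 10 kb window, and ranged from 2 to 5 with a library left out. For CatVII Rxra cKO against Rxra WT, 7 became 0 with lists cut to a smaller length, 3 at that q, 2 in the 10 kb window and 4 by fold enrichment, and ranged from 7 to 19 with a library left out. For corpses against medium, 0 became 39 with all called peaks and 1 by fold enrichment, and ranged from 0 to 5 with a library left out. For Rxra cKO against Rxra WT with corpses, 12 became 6 with lists cut to a smaller length and ranged from 13 to 20 with a library left out. For BEL-treated against untreated corpses, 17 became 10 in the 10 kb window and 11 by fold enrichment. For CatVII against corpses, 24 in Rxra WT became 8 with lists cut to a smaller length and 10 at that q, and ranged from 25 to 41 with a library left out, and 21 in Rxra cKO became 36 with all called peaks and 13 with lists cut to a smaller length, and ranged from 22 to 47. The promoter calls of the 10 genes, 5 in the 5 comparisons, became 13 with all called peaks and ranged from 5 to 8 with a library left out. Fewer sites were tested in a narrower window or list, and a group with fewer libraries separates more easily; beyond this the cause was not tested.

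After seeing the data, libraries were also split by their stored tags: 24 of 76 sites were called among libraries stored as P42 (CatVII Rxra cKO against Rxra WT, 1 control library), where 8.02% and 21.9% of all sites ranked better in Rxra cKO and Rxra WT. For Rxra cKO against Rxra WT with corpses, 22 of 74 were called among NonPhago libraries (19% and 16.4% of all sites) and 67 of 102 among Phago libraries (35.7% and 33.4%). For BEL-treated against untreated corpses, 37 of 73 were called among NonPhago (27.6% and 17.5%) and 43 of 83 among Phago libraries (27.2% and 20.4%). With 1 or 2 libraries a group, sites separate easily, and these counts are given with no reading.

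Replicate numbers did not pair the libraries: same-numbered libraries correlated in their deviations by −0.15 to 0.25. With the replicate number as a block, 13 sites were called in CatVII Rxra cKO against Rxra WT and 20 in Rxra cKO against Rxra WT with corpses. It gave 27 in BEL-treated against untreated corpses, and 30 and 26 in CatVII against corpses in Rxra WT and Rxra cKO. A call without the block already separates every pair of libraries, so the block can only add calls and does not test them. Over the 2 shared numbers, an alternative added after seeing the data, 4 sites were called in catagen against anagen and 4 in corpses against medium.

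Of the 1197 repeats in which a called site still held a listed peak, 1111 stayed on their side of the call, 83 were no longer called and 3 changed direction, all by fold enrichment under BEL: the Tomm40 promoter 15.7 kb upstream of Apoe (0.13), the Ppard intron 4.1 kb into the gene (0.11) and the Pparg intron 70.4 kb into the gene (−0.08). Repeats in which a site lost its listed peak were not counted. Leaving out a library or pairing by replicate number can hardly remove a call, so these counts overstate how stable the calls were. Leaving aside the 10 kb window and the stored tags, the calls kept in every alternative were 4 of 17 under BEL (the Ppara and Abcg1 promoters, the Abcg1 intron 50.9 kb into the gene and the site 8.4 kb upstream of Srebf1), 3 of 12 by genotype with corpses (among them the Abcg1 intron 9.6 kb and the Ppard intron 4.1 kb into the gene), 4 of 24 and 12 of 21 for CatVII against corpses in Rxra WT and Rxra cKO, 0 of 7 by genotype in CatVII and 0 of 2 for catagen against anagen.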
